A study of Mus musculus with 9 samples.

Results

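The 38 genes described here encode glucose and lactate transporters, the enzymes of glycolysis, the proteins that sense oxygen and genes that are induced when oxygen is scarce. They were chosen by symbol for these functions. All 38 were found among the 24060 genes of the expression table, and all 38 passed the filter on low values that kept 12115 genes for testing. RNA had been sequenced from CD8 T cells of 3 mouse lines, Rop7-I, Rop7-II and Rop7-III, with 3 biological replicates of each and 9 samples in all. These are transnuclear mice, made by transferring the nucleus of a CD8 T cell that bound the Rop7 tetramer, so that each line carries the rearranged T-cell receptor of 1 clone, here homozygous and bred onto BALB/c. All 3 receptors recognise the Rop7 peptide of Toxoplasma on H-2Ld, and the study asked whether a receptor's affinity for antigen or for self goes with the function of the T cell. Splenocytes of uninfected mice were kept overnight without antigen at 37 °C in RPMI with 10% serum and recombinant mouse IL-2 at 10 ng per ml, and CD3+ CD8+ H-2Ld-Rop7+ cells were then sorted to a purity of 90 to 95%. Libraries of poly-A RNA that kept no strand information were made from 200 ng of RNA, and the labels give neither the age nor the sex of the mice. With 1 line for each receptor, the receptor and any other difference between the lines cannot be told apart, and the error in every comparison is the spread between replicates.

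As background, glycolysis splits glucose into pyruvate, which is either reduced to lactate and exported or taken into mitochondria, and activated T cells are known for raising both glucose uptake and lactate output. When oxygen is plentiful, prolyl hydroxylases mark the transcription factor HIF-1 alpha for destruction. When it is scarce the factor accumulates and raises many glycolytic enzymes along with genes such as Vegfa and Bnip3, and T-cell receptor and mTOR signals can also raise it.

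Levels are given as TPM (RNA abundance divided by gene length and scaled to the same total in every sample), and differences are given on the log2(TPM + 1) scale, where folds of genes of low level come out smaller than on the TPM scale. The values used carry no read counts, so no counting interval is given. Between 11056 and 11494 genes exceeded 1 TPM in a sample. The label of CD8 T cells was checked against 9 defining markers (Cd3d, Cd3e, Cd3g, Cd247, Cd8a, Cd8b1, Lck, Zap70 and Cd2). None of them was at 0 in any sample, and their summed level lay between 7105 and 7860 TPM, with Cd8b1, at 2052 to 2386 TPM, the most abundant.

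Rop7-II replicate 1 stood apart by the markers of other cells. Its 10 B-cell markers summed to 803 TPM, against 59.9 to 363 TPM in the other samples, and all 10 were highest in it, led by Cd79b at 245 TPM. The 10 myeloid markers summed to 639 TPM, against 35.9 to 238 TPM elsewhere, and again all 10 were highest in it, led by Lyz2 at 485 TPM. CD4 T-cell markers summed to 19.1 TPM in that sample and to between 2.39 and 5.37 TPM in the others. Rop7-I replicate 2 had the highest erythroid sum, 1413 TPM against 15.2 to 287 TPM, with 6 of 8 erythroid markers in the table highest there and Hba-a1 at 502 TPM. NK-cell markers summed to between 0.68 and 5.94 TPM, and immediate early and stress genes to between 96.5 and 163 TPM, with Junb the most abundant, at 114 of 139 TPM in Rop7-II replicate 1 and 139 of 163 TPM in Rop7-I replicate 2. Rop7-II replicate 1 was also the sample with the highest level for 15 of the 38 genes (39.5%), while it was highest for 20.8% of all 12115 genes. In bulk RNA, a greater share of other cells and more RNA per cell cannot be told apart.

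**Figure D1:**
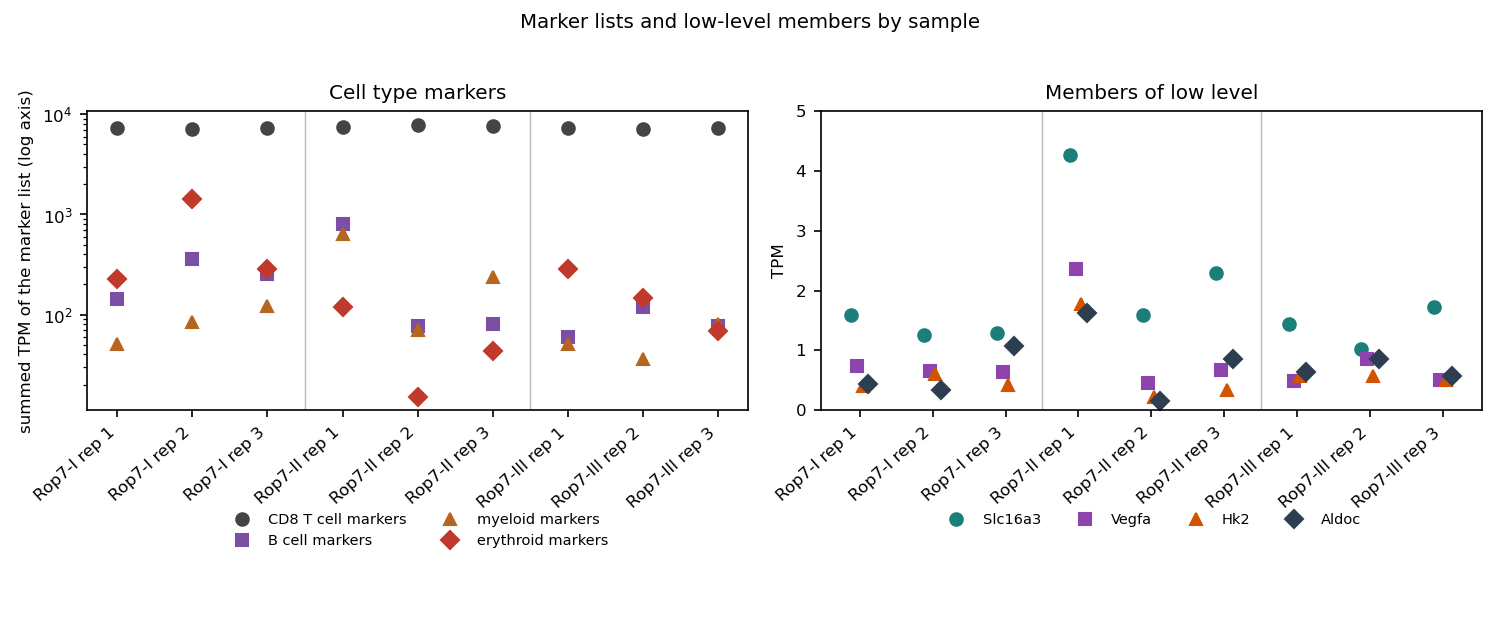
Left, summed TPM of 4 marker lists in each of the 9 samples (log axis), with B-cell and myeloid markers at 803 and 639 TPM in Rop7-II replicate 1 and erythroid markers at 1413 TPM in Rop7-I replicate 2. Right, TPM of the 4 genes of lowest level in the same samples, where Slc16a3, Vegfa, Hk2 and Aldoc are each highest in Rop7-II replicate 1, at 4.27, 2.36, 1.78 and 1.63 TPM.

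Few of the 38 genes were called between clones, at shares near or below those of all genes. Between Rop7-III and Rop7-II, which the study places highest and lowest in affinity for self, limma called 5 of the 38 genes at an adjusted p under 0.01. Ndrg1 and Gpi1 were higher in Rop7-III, and Slc2a1, Ldhb and Ddit4 were lower. The same test called 12.3% of all 12115 genes, 6.39% higher and 5.89% lower in Rop7-III, so the members' share of 13.2% was near that of all genes. Between Rop7-III and Rop7-I it called 1 gene, Ndrg1, which was higher in Rop7-III, beside 4.85% of all genes, 2.58% higher and 2.28% lower. Between Rop7-I and Rop7-II it called 2 genes, Ndrg1 and Pfkfb4, both lower in Rop7-I, beside 7.53% of all genes, 3.67% higher and 3.85% lower. An F test over the 3 clones called 5 members and 14.1% of all genes. The 3 pairs share samples and are not independent of each other.

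The median difference of the 38 genes was -0.08 for Rop7-III against Rop7-II, -0.01 for Rop7-III against Rop7-I and -0.03 for Rop7-I against Rop7-II, with medians over all genes of -0.02, 0.00 and -0.01. The 95% interval of the difference stayed within 0.5 of 0 for 28, 31 and 30 of the 38 genes in these pairs, and within 1 of 0 for 36, 37 and 37. Over all 12115 genes these shares were 70.2, 73.8 and 73.3% within 0.5, beside 73.7, 81.6 and 78.9% of the members, and 89.8, 91.3 and 91.7% within 1, beside 94.7, 97.4 and 97.4%. At an unadjusted p under 0.05 there were 8 genes higher and 9 lower in Rop7-III than Rop7-II, 5 higher and 6 lower in Rop7-III than Rop7-I, and 7 higher and 8 lower in Rop7-I than Rop7-II. Those made up 44.7, 28.9 and 39.5% of the members, and the same limit was passed by 37.8, 28.0 and 32.1% of all genes. The TPM values of the 3 samples did not overlap between Rop7-III and Rop7-II for 17 members, beside 40.7% of all genes. In the other pairs this held for 14 members between Rop7-III and Rop7-I, beside 38.2% of all genes, and for 15 between Rop7-I and Rop7-II, beside 35.0%. An exact permutation test of 3 samples against 3 cannot give a two-sided p under 0.1, so calls rest on the spread that limma pools over genes.

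**Figure D2:**
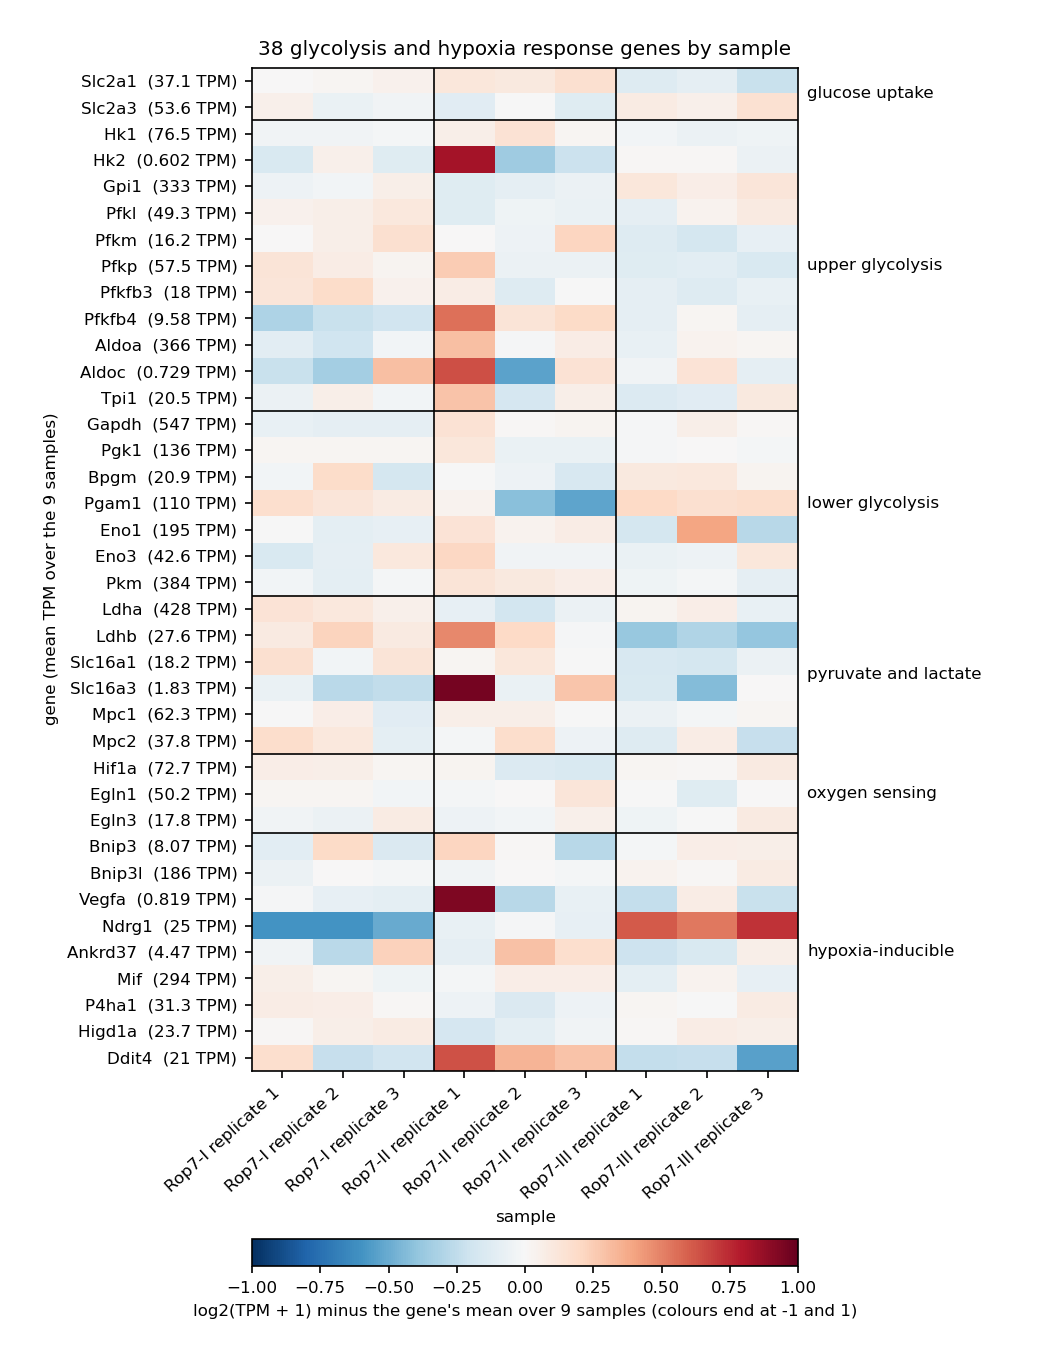
Each row is 1 of the 38 genes, grouped by role, and each column 1 of the 9 samples. Colour gives log2(TPM + 1) minus the gene's mean over the samples, and Ndrg1 is the row with the clearest steps, low in Rop7-I, intermediate in Rop7-II and high in Rop7-III.

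**Figure D3:**
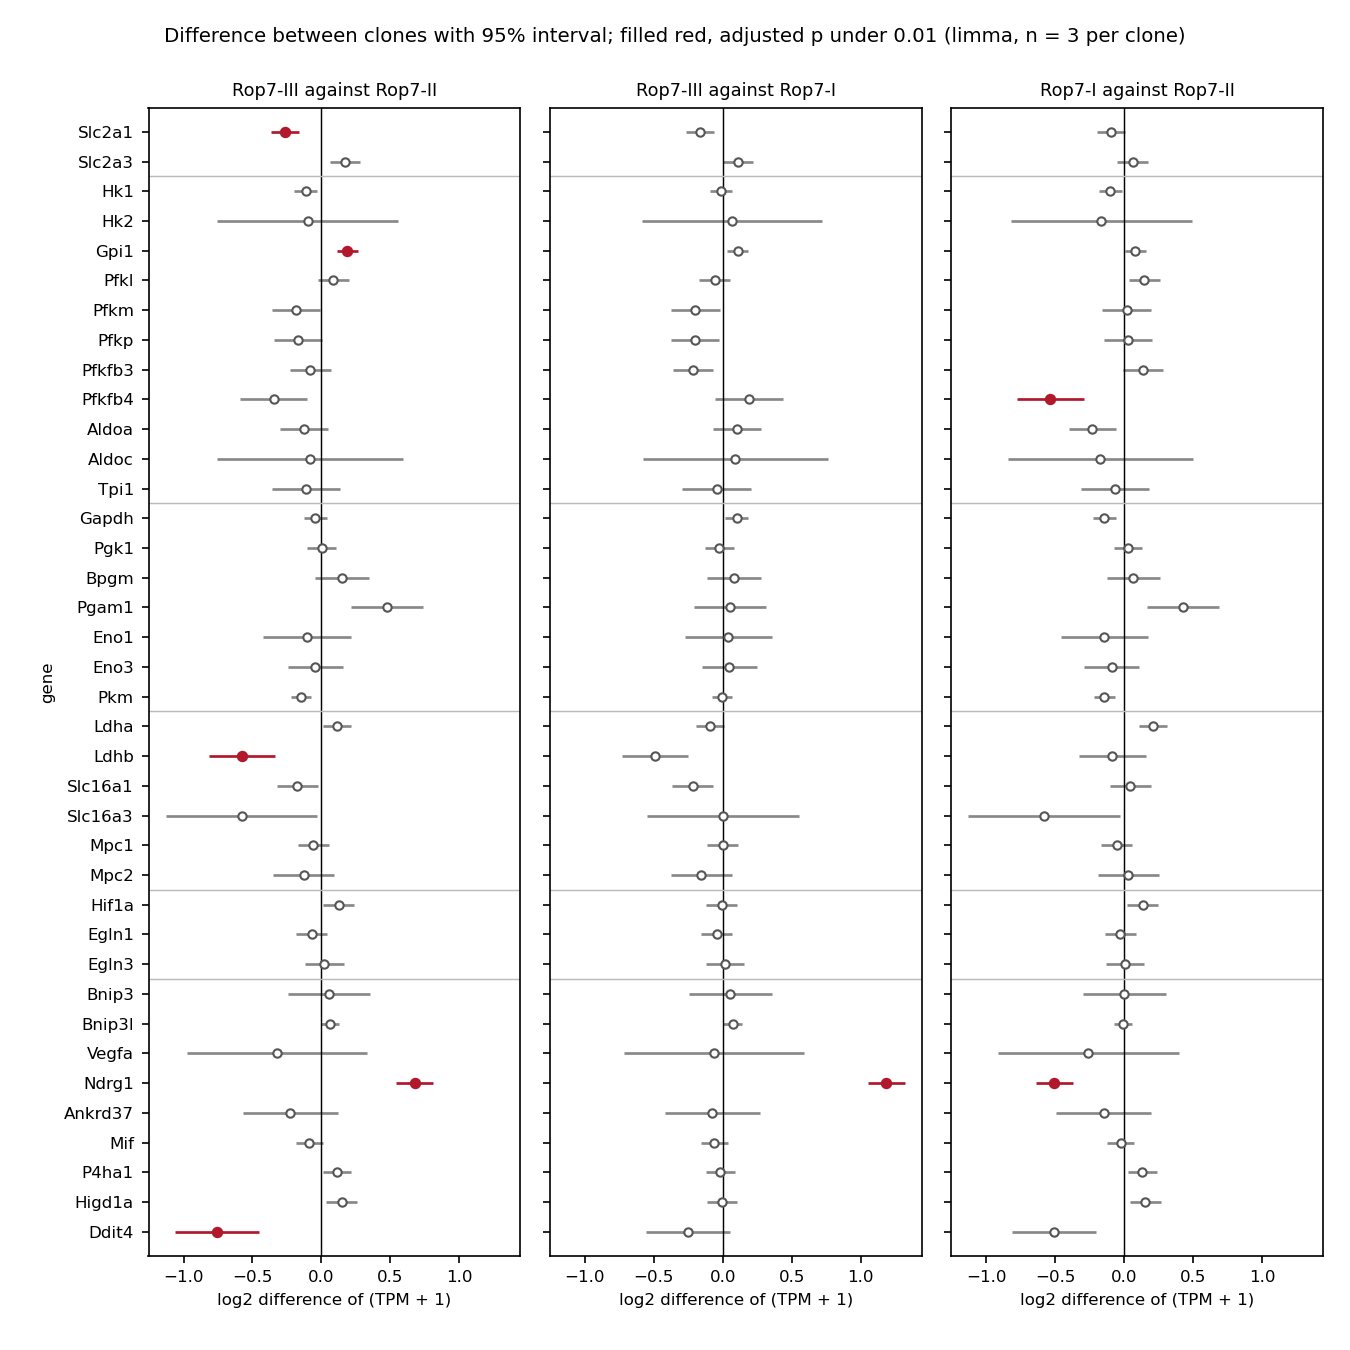
Difference between clones in log2(TPM + 1) for the 38 genes in the 3 pairs, with 95% intervals from limma (n = 3 per clone). Filled red points passed an adjusted p under 0.01 and number 5, 1 and 2, and most open points lie near 0.

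The promoters of the called genes are shown because the HIF factors bind a short core motif, the hypoxia response element. The core was searched as ACGTG or GCGTG on both strands, in windows from 250 bases before to 50 bases after each start site in RefSeq (GRCm38.p6). The palindrome CACGTG, the E-box bound by MYC and related factors, overlaps this core and counts on both strands. A window was given for 35 of the 38 genes, all but Slc2a3, Bnip3l and Ndrg1. At least 1 core lay in a window of 32 of these 35 genes (91.4%), as it did for 46.7% of the 27025 genes with a window. Counted by window, it was in 40 of 49 (81.6%) beside 43.8% of 32851. The 27025 genes and 32851 windows were taken without the filter on low values, which all 38 members passed. These shares therefore come from unlike sets, and no test was made of them. The 250 bases before the start follow, 5′ to 3′ on the gene's strand, for Slc2a1 (chr4:119108495-119108744, plus strand), Ldhb (chr6:142507958-142508207, minus strand), Ddit4 (chr10:59951771-59952020, minus strand), Pfkfb4 (chr9:108991652-108991901, plus strand) and Gpi1 (chr7:34230337-34230586, minus strand), with each match to the core in capitals.
Slc2a1: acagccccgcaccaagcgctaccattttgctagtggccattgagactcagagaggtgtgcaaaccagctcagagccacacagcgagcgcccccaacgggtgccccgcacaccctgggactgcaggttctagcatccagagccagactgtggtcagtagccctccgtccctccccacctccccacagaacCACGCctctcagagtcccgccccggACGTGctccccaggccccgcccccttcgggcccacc
Ldhb: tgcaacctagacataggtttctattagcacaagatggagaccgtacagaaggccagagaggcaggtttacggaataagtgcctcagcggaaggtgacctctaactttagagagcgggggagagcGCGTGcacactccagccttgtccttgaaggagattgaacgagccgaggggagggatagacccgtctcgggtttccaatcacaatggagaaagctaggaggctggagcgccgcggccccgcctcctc
Ddit4: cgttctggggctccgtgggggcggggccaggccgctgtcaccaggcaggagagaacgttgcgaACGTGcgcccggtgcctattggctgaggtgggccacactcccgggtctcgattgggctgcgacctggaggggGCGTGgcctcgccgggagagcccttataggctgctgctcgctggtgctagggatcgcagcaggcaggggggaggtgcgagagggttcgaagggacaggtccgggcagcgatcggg
Pfkfb4: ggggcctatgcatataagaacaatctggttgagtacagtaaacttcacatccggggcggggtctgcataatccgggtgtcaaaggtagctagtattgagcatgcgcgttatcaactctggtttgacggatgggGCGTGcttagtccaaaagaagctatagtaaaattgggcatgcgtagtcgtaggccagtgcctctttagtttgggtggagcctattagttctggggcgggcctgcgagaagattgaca
Gpi1: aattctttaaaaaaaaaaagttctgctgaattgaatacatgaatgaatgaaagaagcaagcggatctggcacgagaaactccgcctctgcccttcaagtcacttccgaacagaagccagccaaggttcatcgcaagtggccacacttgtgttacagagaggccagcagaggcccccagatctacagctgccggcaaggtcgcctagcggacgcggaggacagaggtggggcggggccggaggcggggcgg
Slc2a1 held 2 matches, starting 61 and 36 bases before the start site, and Ddit4 held 2, at 187 and 115 bases. Ldhb held 1 at 126 bases and Pfkfb4 held 1 at 117 bases. The stretch printed for Pfkfb4 precedes a start site inside the span of the gene, chr9:108988272-109032236, and is not upstream of the whole gene. Gpi1 held 0 in these letters. Whether the matches have a part in any difference between clones was not tested. A match describes the sequence and is not a measured binding site.

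Glucose enters T cells through the transporters GLUT1, encoded by Slc2a1, and GLUT3, encoded by Slc2a3. Values by sample are given here and below in the order of replicates 1 to 3. Slc2a1, on chr4:119108745-119137330, stood at 37.1, 37.6 and 38.2 TPM (Rop7-I), at 39.98, 39.56 and 41.36 TPM (Rop7-II) and at 33.8, 34.8 and 31.6 TPM (Rop7-III). All Rop7-III samples lay below all others and all Rop7-II samples above all others. Rop7-III averaged 33.4 ± 1.65 TPM and Rop7-II 40.3 ± 0.942 TPM (SD, n = 3 each), a difference in log2(TPM + 1) of -0.27 (standard error 0.05, 95% interval -0.37 to -0.16, adjusted p = 0.0029), or 1.202-fold. Its promoter is among those shown above. The call was lost without Rop7-II replicate 3 (adjusted p = 0.0114) and without Rop7-III replicate 1 (adjusted p = 0.0115). It was also lost in a fit to the pair only (0.0141), with a replicate block (0.0106) and, in an alternative chosen after seeing the data, with both marker-rich samples, Rop7-II replicate 1 and Rop7-I replicate 2, left out (0.0152). Against Rop7-I, Slc2a1 of Rop7-III differed by -0.17 (adjusted p = 0.039).

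Slc2a3, the more abundant of the transporters, leaned the other way without passing the test. Its level was 55.4, 51.0 and 52.3 TPM (Rop7-I), 49.5, 53.4 and 49.2 TPM (Rop7-II) and 56.7, 55.5 and 59.6 TPM (Rop7-III). The Rop7-III samples were the 3 highest of the 9, and the other clones overlapped. The difference between Rop7-III and Rop7-II was 0.17 (adjusted p = 0.030). As a share of the TPM of both transporters, Slc2a1 made up 44.3 ± 1.59% in Rop7-II, 41.6 ± 1.29% in Rop7-I and 36.8 ± 2.00% in Rop7-III (SD, n = 3).

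Of the 11 genes of upper glycolysis, which phosphorylate glucose and split it into triose phosphates, Gpi1 was called between Rop7-III and Rop7-II and Pfkfb4 between Rop7-I and Rop7-II. Each call was 9.09% of the 11, beside 12.3 and 7.53% of all genes in these pairs. Gpi1 encodes the isomerase that turns glucose phosphate into fructose phosphate. It stood at 321, 325 and 345 TPM (Rop7-I), at 304, 313 and 319 TPM (Rop7-II) and at 358, 347 and 361 TPM (Rop7-III). All 3 Rop7-III samples were above the other 6, and all Rop7-II samples were below. Gpi1 rose 1.14-fold from Rop7-II to Rop7-III, by 0.19 in log2(TPM + 1) (standard error 0.03, 95% interval 0.11 to 0.27, adjusted p = 0.0043). This small difference was not called without Rop7-II replicate 1 (adjusted p = 0.0128), Rop7-II replicate 2 (0.0119), Rop7-III replicate 1 (0.0205), Rop7-III replicate 2 (0.0107) or Rop7-III replicate 3 (0.0194), nor with no filter on low values (0.0178), no variance trend (0.0170) or both marker-rich samples left out (0.0221).

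Pfkfb4 encodes an enzyme that makes and removes the fructose bisphosphate by which phosphofructokinase is activated. Its level was 7.40, 7.95 and 8.10 TPM (Rop7-I), 14.3, 10.4 and 10.9 TPM (Rop7-II) and 8.80, 9.56 and 8.80 TPM (Rop7-III). The clones did not overlap, and the highest value belonged to Rop7-II replicate 1. Rop7-I was 1.45-fold below Rop7-II, with a difference of -0.54 (standard error 0.11, 95% interval -0.78 to -0.29) and an adjusted p of 0.00997, just under the threshold. Leaving out any sample other than Rop7-II replicate 2 gave an adjusted p for Pfkfb4 between 0.0106 and 0.0413. Its call was also lost with no filter (0.0463), no variance trend (0.0162), a fit to the pair only (0.0380), a replicate block (0.0250) and both marker-rich samples left out (0.0310). Without Rop7-II replicate 1 the difference was -0.41 (adjusted p = 0.0106), and the part that the B-cell and myeloid markers of that sample play in it was not tested.

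Aldoa, the gene of aldolase A, had the highest mean over the 9 samples in upper glycolysis, at 339, 316 and 357 TPM (Rop7-I), 449, 360 and 382 TPM (Rop7-II) and 345, 372 and 369 TPM (Rop7-III). Rop7-II replicate 1 was the highest, Rop7-II and Rop7-III overlapped, and Gpi1 stood above Aldoa in Rop7-I replicate 2 and Rop7-III replicate 1. The difference between Rop7-I and Rop7-II was -0.23 (adjusted p = 0.069), and -0.14 without Rop7-II replicate 1 (adjusted p = 0.125). Where a step has several genes, 1 or 2 of them carried most of the RNA. Aldoa made up at least 99.6% of the TPM of Aldoa and Aldoc in every sample, and Hk1 between 94.5 and 99.0% of that of Hk1, Hk2 and Hk3. Among the phosphofructokinases the mean share of Pfkp lay between 45.0 and 48.3%, that of Pfkl between 37.98 and 42.46% and that of Pfkm between 12.6 and 13.7% in the 3 clones. The remaining members, Hk1 (76.5 TPM over the 9 samples), Pfkp (57.5), Pfkl (49.3), Tpi1 (20.5), Pfkfb3 (18.0) and Pfkm (16.2), were not called in any pair. Without Rop7-II replicate 1, Pfkp was called between Rop7-III and Rop7-I, at -0.20 (adjusted p = 0.0086).

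None of the 7 genes of lower glycolysis, which oxidise triose phosphates to pyruvate, was called by limma in any pair. At an unadjusted p under 0.05 there was 1 higher and 1 lower in Rop7-III than Rop7-II, 1 higher and 0 lower than Rop7-I, and 1 higher and 2 lower in Rop7-I than Rop7-II, or 28.6, 14.3 and 42.9% of the 7 beside 37.8, 28.0 and 32.1% of all genes. Gapdh, the dehydrogenase of this stage, had the highest level of all 38 genes. It stood at 520, 514 and 515 TPM (Rop7-I), 605, 553 and 558 TPM (Rop7-II) and 542, 569 and 551 TPM (Rop7-III). All Rop7-I samples were below the other 6, which overlapped. Gapdh differed by -0.15 between Rop7-I and Rop7-II (95% interval -0.23 to -0.06, adjusted p = 0.026), and by -0.10 without Rop7-II replicate 1 (adjusted p = 0.039). Pkm, the pyruvate kinase gene, averaged 384 TPM and differed by -0.15 between Rop7-III and Rop7-II (adjusted p = 0.0105), which was called with a minimum of 1 TPM in every sample (0.0094). Pgk1 averaged 136 TPM, Eno3 42.6 TPM and Bpgm 20.9 TPM, and the differences of these 3 genes lay between -0.09 and 0.15.

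Pgam1, the phosphoglycerate mutase gene, depended on Rop7-II replicate 1. Its level was 122, 118 and 115 TPM (Rop7-I), 111, 81.0 and 75.2 TPM (Rop7-II) and 125, 121 and 122 TPM (Rop7-III). Replicates 2 and 3 of Rop7-II were well below every other sample, and replicate 1 was close to the other clones. With all 9 samples Pgam1 was 0.48 higher in Rop7-III than Rop7-II (standard error 0.12, adjusted p = 0.017) and was not called. Without that sample the difference was 0.65 (standard error 0.04, adjusted p = 3.6e-05). Between Rop7-I and Rop7-II it went from 0.43 (adjusted p = 0.035) to 0.60 (adjusted p = 6.4e-05). With array weights on all 9 samples Pgam1 was called in both pairs, at 0.55 (adjusted p = 0.0019) and 0.50 (adjusted p = 0.0052), and with both marker-rich samples left out as well (2.0e-04 and 6.7e-04). The B-cell markers stood at 803 TPM in that sample and at 77.2 and 80.4 TPM in the other Rop7-II samples, and their part in the level of Pgam1 was not tested.

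Eno1, the main enolase gene, shares its sequence with another entry of the table. Its transcript matched that of Eno1b with 99.5% identity over 1736 bases, so short reads cannot be assigned with certainty to either. Eno1 stood at 193, 181 and 183 TPM (Rop7-I), 213, 199 and 204 TPM (Rop7-II) and 171, 254 and 160 TPM (Rop7-III). Eno1b stood at 178, 179 and 201 TPM, 233, 197 and 190 TPM, and 167, 122 and 199 TPM in the same samples. Rop7-III replicate 2 was at once the highest for Eno1 and the lowest for Eno1b. Summed, they gave 372 ± 12.1 TPM for Rop7-I, 412 ± 29.1 TPM for Rop7-II and 358 ± 19.5 TPM for Rop7-III (SD, n = 3). For Eno1 as deposited, Rop7-III and Rop7-II differed by -0.10 (standard error 0.14, adjusted p = 0.62), and without Rop7-III replicate 2 it was -0.31 (adjusted p = 0.0042). For the sum of Eno1 and Eno1b, an alternative chosen after seeing the data, it was -0.20 (standard error 0.06, adjusted p = 0.028). Pgam1, Eno1 and the other members named here that were not called, were not the most abundant of their role and did not fall below 1 TPM on average were singled out after their values were seen.

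Pyruvate and lactate are handled by 6 of the genes, of which Ldhb was called between Rop7-III and Rop7-II (16.7%, beside 12.3% of all genes). Ldhb encodes the lactate dehydrogenase subunit that prevails in heart, and Ldha the subunit that prevails in muscle and in proliferating cells. Ldhb stood at 28.9, 31.7 and 28.8 TPM (Rop7-I), at 38.1, 31.1 and 26.8 TPM (Rop7-II) and at 20.6, 21.8 and 20.4 TPM (Rop7-III). All Rop7-III samples were below the other 6, while Rop7-I lay within the range of Rop7-II, whose replicate 1 was highest. Ldhb fell 1.49-fold from Rop7-II to Rop7-III, a difference of -0.58 (standard error 0.11, 95% interval -0.82 to -0.34, adjusted p = 0.0045). Against Rop7-I the difference of Rop7-III was -0.49 (adjusted p = 0.017). Without Rop7-II replicate 1, the sample rich in B-cell and myeloid markers, both were called, at -0.45 (adjusted p = 0.0041) and -0.49 (adjusted p = 0.0023). The latter was also called without Rop7-II replicate 3 (adjusted p = 0.0066), with array weights (0.0025) and in a fit to the pair only (0.0021). The call between Rop7-III and Rop7-II was lost without Rop7-I replicate 1 (adjusted p = 0.0103), Rop7-II replicate 2 (0.0119), Rop7-III replicate 1 (0.0209), Rop7-III replicate 2 (0.0150) or Rop7-III replicate 3 (0.0205), and likewise with no filter (0.0329), no variance trend (0.0110) or a fit to the pair only (0.0215).

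Ldha stood at 471, 460 and 443 TPM (Rop7-I), 404, 376 and 409 TPM (Rop7-II) and 435, 447 and 405 TPM (Rop7-III). Rop7-I was above Rop7-II in all samples, and Rop7-III overlapped both. Ldha was 0.21 higher in Rop7-I than Rop7-II (95% interval 0.10 to 0.31, adjusted p = 0.014). Ldhb made up 7.46 ± 1.25% of the TPM of Ldha and Ldhb in Rop7-II, 6.11 ± 0.332% in Rop7-I and 4.65 ± 0.138% in Rop7-III (SD, n = 3). The lactate exporter Slc16a1 averaged 18.2 TPM and Slc16a3, the exporter of highly glycolytic cells, 1.83 TPM, with its highest value, 4.27 TPM, in Rop7-II replicate 1. The mitochondrial pyruvate carrier genes Mpc1 and Mpc2 averaged 62.3 and 37.8 TPM. None of these 4 genes was called in a pair, and their differences between Rop7-III and Rop7-II were -0.17, -0.58, -0.06 and -0.13, of which those of Slc16a1 and Slc16a3 had an unadjusted p under 0.05. Without Rop7-II replicate 1 the difference of Slc16a3 was -0.30 (adjusted p = 0.265).

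**Figure D4:**
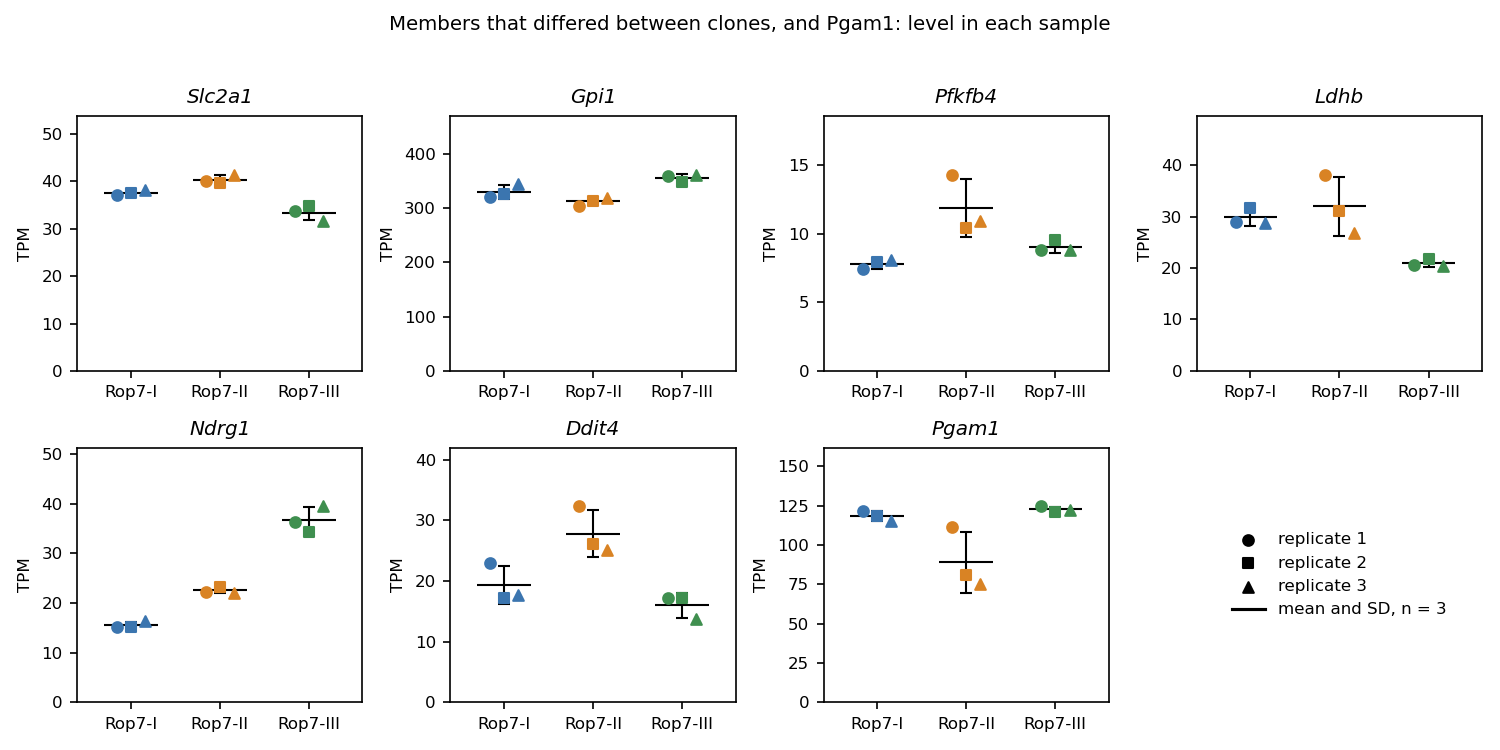
TPM in each sample for the 6 called genes and Pgam1, with replicates as symbols, the mean as a line and the SD as a bar (n = 3 per clone). Ndrg1 steps from a mean of 15.6 TPM in Rop7-I to 22.6 in Rop7-II and 36.7 in Rop7-III, and Pgam1 is low in 2 of the 3 Rop7-II samples.

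Oxygen sensing was represented by Hif1a, which encodes HIF-1 alpha, and by the prolyl hydroxylase genes Egln1 and Egln3. Limma called 0 of the 3 in any pair, with 1 higher in Rop7-III than Rop7-II and 1 higher in Rop7-I than Rop7-II at an unadjusted p under 0.05, beside 37.8 and 32.1% of all genes. Hif1a stood at 75.9, 75.7 and 73.6 TPM (Rop7-I), 74.0, 65.8 and 65.3 TPM (Rop7-II) and 73.6, 73.1 and 77.2 TPM (Rop7-III). Replicates 2 and 3 of Rop7-II were the lowest, and replicate 1 lay among the samples of the other clones. Hif1a in Rop7-III and Rop7-II differed by 0.13 (adjusted p = 0.095), and without Rop7-II replicate 1 by 0.18 (adjusted p = 0.0097), which passed the threshold. Its alternatives gave an adjusted p from 0.0097 to 0.243. Egln1 ranged from 46.1 to 54.5 TPM and Egln3 from 17.1 to 19.0 TPM. HIF-1 alpha is controlled mainly as a protein, which RNA levels do not show.

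Among the 9 hypoxia-inducible genes Ndrg1 had the clearest difference of all 38. Ndrg1, on chr15:66929318-66969641, encodes a stress-response protein that rises under hypoxia and on differentiation. It stood at 15.2, 15.2 and 16.3 TPM (Rop7-I), at 22.3, 23.3 and 22.1 TPM (Rop7-II) and at 36.4, 34.4 and 39.5 TPM (Rop7-III). The clones were fully separated, in the order Rop7-I, Rop7-II, Rop7-III, by gaps larger than the range within any clone. Ndrg1 was 1.60-fold higher in Rop7-III than Rop7-II, by 0.68 (standard error 0.06, 95% interval 0.54 to 0.81, adjusted p = 7.6e-05). Against Rop7-I it was 2.27-fold higher in Rop7-III, by 1.18 (95% interval 1.05 to 1.32, adjusted p = 5.7e-06). Rop7-I was 1.42-fold below Rop7-II, by -0.51 (95% interval -0.64 to -0.37, adjusted p = 6.5e-04). Both calls for Rop7-III held in all 21 alternatives, with an adjusted p of at most 0.0012 against Rop7-II and 4.3e-04 against Rop7-I. The call between Rop7-I and Rop7-II held in 20 of 21 and missed the threshold (adjusted p = 0.0111) when Rop7-II replicate 1 and Rop7-I replicate 2 were both left out, an alternative chosen after seeing the data.

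Some markers of dividing cells were called higher in Rop7-III as well. The 11 listed summed to 44.8, 56.8 and 68.1 TPM (Rop7-III), against 25.3 to 29.2 TPM in Rop7-I and 22.5 to 26.6 TPM in Rop7-II, and none was at 0. Of the 10 that were tested, 5 were called higher in Rop7-III than Rop7-II and 4 higher than Rop7-I, beside 6.39 and 2.58% of all genes. Between Rop7-I and Rop7-II, where Ndrg1 differed too, limma called 0 of them, with 2 higher in Rop7-I at an unadjusted p under 0.05, a limit that 32.1% of all genes passed in either direction. The part of dividing cells in the level of Ndrg1 was not tested.

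Ddit4 encodes an inhibitor of mTOR signalling that hypoxia, glucocorticoids and lack of energy induce. It stood at 23.0, 17.3 and 17.7 TPM (Rop7-I), at 32.3, 26.1 and 25.1 TPM (Rop7-II) and at 17.2, 17.2 and 13.7 TPM (Rop7-III). All Rop7-II samples were above the other 6, and replicate 1 was the highest within both Rop7-I and Rop7-II. Ddit4 fell 1.69-fold from Rop7-II to Rop7-III, a difference of -0.76 (standard error 0.14, 95% interval -1.06 to -0.46, adjusted p = 0.0037). Without Rop7-II replicate 1 it was -0.65 and just missed the threshold (adjusted p = 0.0101). The call was also lost without Rop7-III replicate 1 (adjusted p = 0.0117), Rop7-III replicate 2 (0.0111) or Rop7-III replicate 3 (0.0160), with no filter (0.0307) and with both marker-rich samples left out (0.0149). Ddit4 differed by -0.51 between Rop7-I and Rop7-II (adjusted p = 0.031), which was called with a replicate block (0.0090). Ndrg1 and Ddit4 are both listed as hypoxia-inducible and were called in opposite directions between Rop7-III and Rop7-II.

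Mif, a cytokine gene and the most abundant of this group, stood at 305, 298 and 285 TPM (Rop7-I), 289, 307 and 307 TPM (Rop7-II) and 274, 300 and 277 TPM (Rop7-III). The 3 clones overlapped. Bnip3l, a receptor for the removal of mitochondria, averaged 186 TPM, and the collagen hydroxylase gene P4ha1 31.3 TPM. The mitochondrial gene Higd1a averaged 23.7 TPM, Bnip3 8.07 TPM and Ankrd37 4.47 TPM. The differences of Mif, Bnip3l, P4ha1, Higd1a, Bnip3 and Ankrd37 lay between -0.23 and 0.15 in the 3 pairs, and none was called.

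Hk2, Aldoc and Vegfa were the 3 members with a mean under 1 TPM and are named for that low level. Hk2, the inducible hexokinase, averaged 0.602 TPM, Aldoc 0.729 TPM and Vegfa, the angiogenic growth factor, 0.819 TPM. Hk2 stood at 0.40, 0.61 and 0.43 TPM (Rop7-I), 1.78, 0.22 and 0.34 TPM (Rop7-II) and 0.57, 0.57 and 0.50 TPM (Rop7-III). Vegfa stood at 0.74, 0.66 and 0.64 TPM, 2.36, 0.45 and 0.67 TPM, and 0.49, 0.85 and 0.51 TPM in the same order. Rop7-II replicate 1 was the only sample in which Hk2 or Vegfa exceeded 1 TPM, so both passed the filter through that sample. Aldoc exceeded 1 TPM in that sample, at 1.63 TPM, and in Rop7-I replicate 3, at 1.07 TPM. Their 95% intervals between Rop7-III and Rop7-II were wide, from -0.75 to 0.56 for Hk2, from -0.75 to 0.59 for Aldoc and from -0.98 to 0.33 for Vegfa. The differences were -0.10, -0.08 and -0.32 for Hk2, Aldoc and Vegfa, and without Rop7-II replicate 1, with the same genes tested, they turned to 0.27, 0.20 and 0.05 (adjusted p = 0.232, 0.622 and 0.863). The B-cell and myeloid markers were highest in the same sample, and their part in these levels was not tested.

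Added up, the TPM of 18 glycolytic enzyme genes came to 2312 ± 41.2 in Rop7-I, 2441 ± 129 in Rop7-II and 2397 ± 72.9 in Rop7-III (SD, n = 3). The samples ranged from 2268 to 2589 TPM, the highest being Rop7-II replicate 1. All Rop7-II samples were above all Rop7-I samples, by as little as 2355 against 2349 TPM, and Rop7-III overlapped both. This sum counts Eno1 without Eno1b, and the 2481 TPM of Rop7-III replicate 2 include its 254 TPM of Eno1, beside its 122 TPM of Eno1b. Other transcripts limit how exactly some members are known, and 7 of the 38 had a match among the transcripts of other genes in the table, 3 of them on the same strand. Besides Eno1, these 3 are Gapdh, which matched Gm12070, at 1.83 TPM, and Gm5069, at 1.02 TPM, and Gpi1, which matched Mrpl27, at 47.6 TPM, over 101 bases with 95.05% identity. On the opposite strand, which these libraries do not tell apart, Gpi1 matched Wdr33, at 74.7 TPM, over 124 bases. Eno3 shares 3675 bases of its genomic span with Pfn1, which averaged 1968 TPM, and Slc16a3 shares 1292 bases with Csnk1d, which averaged 162 TPM. Hk1 shares 23378 bases of genomic span with Hk1os, at 8.63 TPM, and Mpc1 4302 bases with 4930506C21Rik, at 3.06 TPM. In transcript bases, on opposite strands, Hk1 and Hk1os had 157 in common and Mpc1 and 4930506C21Rik 107. For Eno3 and Slc16a3 the search, which needed at least 100 bases at 95% identity, found no transcript match. Pfkp and Pitrm1, at 47.3 TPM, share 285 bases of their genomic spans and have 748 transcript bases in common on opposite strands. How much of the level of these genes came from the overlapping transcripts was not tested.

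Neighbouring genes were counted within 1 Mb of each called member. For Ndrg1, 2 of 5 tested neighbours, Sla and St3gal1, were also called between Rop7-III and Rop7-II, and the same 2 of 5 between Rop7-I and Rop7-II, while Sla was the 1 of 5 called between Rop7-III and Rop7-I. Slc2a1 had 3 of 18 tested neighbours called in its pair, Gpi1 had 1 of 6, Ldhb 1 of 8, Ddit4 1 of 12 and Pfkfb4 1 of 43. All genes tested were called at 12.3% between Rop7-III and Rop7-II, 4.85% between Rop7-III and Rop7-I and 7.53% for Rop7-I with Rop7-II.

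Other genes of the same pathways were taken from 6 lists, whose counts stand beside calls for 12.3, 4.85 and 7.53% of all genes in the 3 pairs. At an unadjusted p under 0.05 between Rop7-III and Rop7-II there were 2 of 10 other glycolysis genes, 7 of 16 in the branch routes, 3 of 11 in the pyruvate dehydrogenase list, 5 of 14 HIF regulators, 10 of 20 other hypoxia-inducible genes and 11 of 19 regulators of glucose metabolism, beside 37.8% of all genes. Of 19 other glycolysis genes, which are mainly the forms of other tissues, 10 were tested. Between Rop7-III and Rop7-I limma called 0 of these, with 1 higher and 2 lower at an unadjusted p under 0.05 (30%, beside 28.0% of all genes). It called 1 lower in Rop7-III than Rop7-II, and 1 higher and 1 lower in Rop7-I than Rop7-II. The gene lower in Rop7-III was Eno2, the neuronal enolase, at 2.05, 1.72 and 1.65 TPM (Rop7-I), 4.53, 3.82 and 4.00 TPM (Rop7-II) and 1.69, 0.98 and 0.89 TPM (Rop7-III). Eno2 was higher in every Rop7-II sample than in the other 6, with a difference of -1.24 between Rop7-III and Rop7-II (adjusted p = 6.2e-04) and of -0.87 between Rop7-I and Rop7-II (adjusted p = 0.0061). The latter call was lost without any of the Rop7-I or Rop7-II samples or Rop7-III replicate 2 (adjusted p between 0.0110 and 0.0272), with a pseudocount of 0.1 (0.0116), no filter (0.0252), array weights (0.0117) or both marker-rich samples left out (0.0476). Pgam2, the muscle form of phosphoglycerate mutase, was 0.45 higher in Rop7-I than Rop7-II (adjusted p = 0.0042). It was not called without any of the 3 Rop7-I samples (adjusted p between 0.0164 and 0.0210), nor with no filter (0.0229), a fit to the pair only (0.0194) or both marker-rich samples left out (0.0209).

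In the branch routes, which lead to pentose phosphates, hexosamines, glycerol phosphate and serine, 1 of 16 genes was called higher in Rop7-III than Rop7-II and 1 higher in Rop7-I than Rop7-II. Between Rop7-III and Rop7-I 0 were called, with 0 higher and 1 lower at an unadjusted p under 0.05 (6.25%, beside 28.0% of all genes). Gpd2, the mitochondrial enzyme of the glycerol phosphate shuttle, was 0.49 higher in Rop7-III than Rop7-II (adjusted p = 0.0029). Its call was lost without Rop7-II replicate 3 (adjusted p = 0.0114), Rop7-III replicate 1 (0.0158) or Rop7-III replicate 2 (0.0128), and with no filter (0.0156). Shmt1, which passes carbon from serine to folate, was 0.48 higher in Rop7-I than Rop7-II (adjusted p = 0.0028). For Shmt1 the call was lost without Rop7-I replicate 1 (adjusted p = 0.0127), Rop7-I replicate 3 (0.0126) or Rop7-II replicate 2 (0.0106), in a fit to the pair only (0.0131), with a replicate block (0.0107) and with both marker-rich samples left out (0.0140). With no variance trend Shmt1 was also called between Rop7-III and Rop7-II, at 0.32 (adjusted p = 0.0082).

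Pdk1 had by far the largest difference of the wider lists. It encodes a kinase that inactivates pyruvate dehydrogenase, the mitochondrial complex that turns pyruvate into acetyl-CoA, and it is a known hypoxia-inducible gene. Pdk1 stood at 37.2, 37.7 and 39.0 TPM (Rop7-I), at 236, 226 and 255 TPM (Rop7-II) and at 41.7, 39.7 and 41.7 TPM (Rop7-III). Rop7-II was far above both other clones in every sample. The difference was -2.51 between Rop7-III and Rop7-II (5.70-fold, adjusted p = 9.1e-09) and -2.62 between Rop7-I and Rop7-II (6.14-fold, adjusted p = 6.3e-09), and both were called in all 21 alternatives. Between Rop7-III and Rop7-I it was 0.11 (95% interval 0.00 to 0.22, adjusted p = 0.17). Of the 12 genes of the pyruvate dehydrogenase list 11 were tested, and Pdk1 was the 1 called between Rop7-III and Rop7-II and the 1 called between Rop7-I and Rop7-II. The 1 call of Rop7-III against Rop7-I was Pdp2, a phosphatase that switches the complex on, at -0.36 (adjusted p = 0.0094). Pdp2 was not called without any single sample of the 9 (adjusted p between 0.0105 and 0.0399), and was lost in 16 of 21 alternatives, among them a pseudocount of 0.1 (0.0102), no filter (0.0164), quantile normalization (0.0211), a common median (0.0155), a fit to the pair only (0.0159), a replicate block (0.0259) and both marker-rich samples left out (0.0347).

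Regulators of HIF, of which 14 of 15 were tested, gave 1 gene higher and 2 lower in Rop7-III than Rop7-II, 1 higher and 1 lower in Rop7-III than Rop7-I, and 1 lower in Rop7-I than Rop7-II. Siah1a encodes a ubiquitin ligase whose family removes prolyl hydroxylases. It stood at 128, 132 and 136 TPM (Rop7-I), 151, 154 and 162 TPM (Rop7-II) and 105, 99.6 and 105 TPM (Rop7-III). The 3 clones were fully separated, with Rop7-III lowest. Siah1a differed by -0.59 between Rop7-III and Rop7-II (adjusted p = 1.7e-05), by -0.35 between Rop7-III and Rop7-I (adjusted p = 6.4e-04) and by -0.24 between Rop7-I and Rop7-II (adjusted p = 0.0037). The last of these was lost without Rop7-I replicate 1 (adjusted p = 0.0175), Rop7-I replicate 2 (0.0186), Rop7-II replicate 2 (0.0101) or Rop7-II replicate 3 (0.0114), and with no filter (0.0186), no variance trend (0.0136), a fit to the pair only (0.0162) or both marker-rich samples left out (0.0205). Cited2, an inhibitor that competes with HIF for its coactivators, was 0.46 higher in Rop7-III than Rop7-II (adjusted p = 0.0020) and 0.41 higher than Rop7-I (adjusted p = 0.0067). Against Rop7-II the call of Cited2 was lost without Rop7-III replicate 1 or Rop7-III replicate 3 (adjusted p = 0.0105 for each) or with no filter (0.0174). Against Rop7-I it was lost without Rop7-I replicate 1, Rop7-I replicate 3, Rop7-II replicate 3 or any Rop7-III sample (adjusted p between 0.0108 and 0.0356), and with no filter (0.0439), no variance trend (0.0175), a fit to the pair only (0.0125) or a replicate block (0.0210). Egln2, a prolyl hydroxylase gene, was the other gene called lower in Rop7-III than Rop7-II, at -0.15 (adjusted p = 0.0054), and was not called without Rop7-II replicate 1 (adjusted p = 0.0151), without Rop7-I replicate 2 (0.0102) or without both (0.0252).

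**Figure D5:**
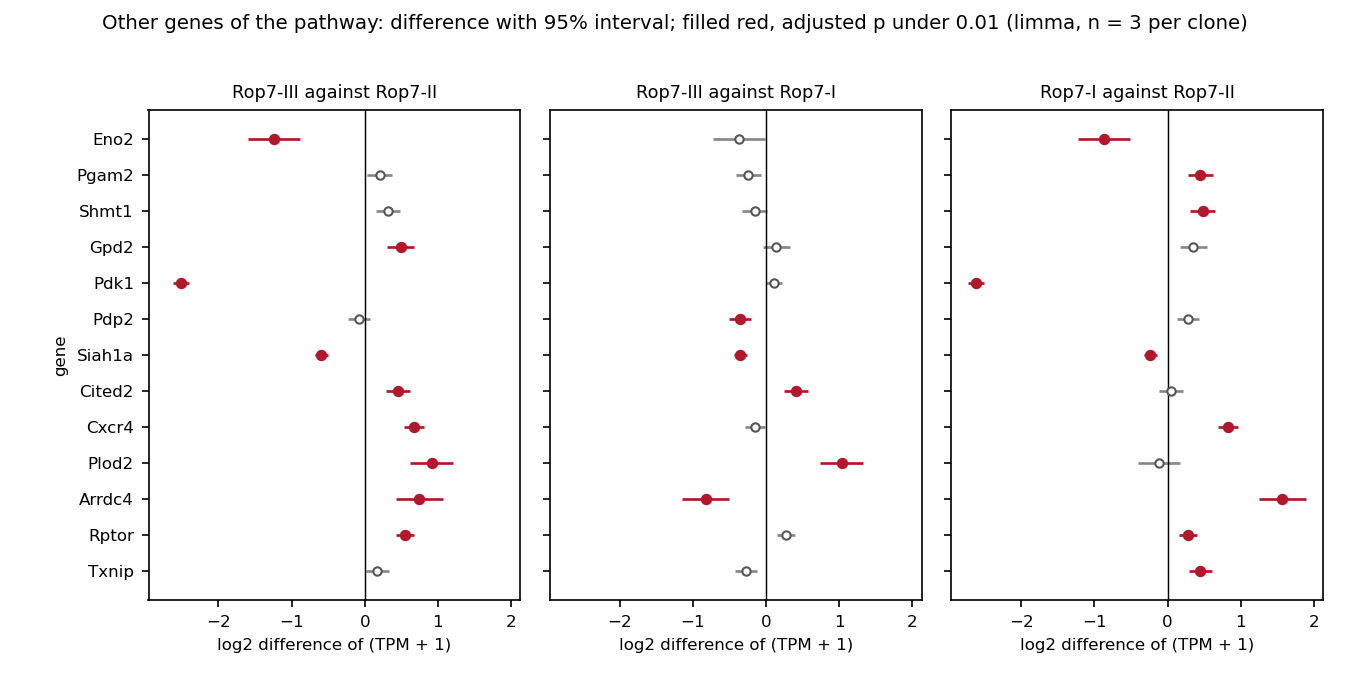
Difference between clones in log2(TPM + 1) for 13 genes of the wider lists, in each list up to 3 with the smallest adjusted p under 0.01 in the F test, with 95% intervals from limma (n = 3 per clone) and filled red points for an adjusted p under 0.01. Pdk1 lies farthest from 0, at -2.51 and -2.62 in the pairs with Rop7-II and at 0.11 between Rop7-III and Rop7-I.

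Other hypoxia-inducible genes, of which 20 of 24 were tested, gave 3 higher and 1 lower in Rop7-III than Rop7-II, 1 higher in Rop7-III than Rop7-I, and 2 higher and 1 lower in Rop7-I than Rop7-II. The lower gene was Pdk1 both times. Plod2, a lysyl hydroxylase gene, stood at 1.06, 1.51 and 1.33 TPM (Rop7-I), 1.61, 1.37 and 1.48 TPM (Rop7-II) and 4.05, 3.70 and 3.33 TPM (Rop7-III). It was higher in every Rop7-III sample than elsewhere, by 0.91 against Rop7-II (adjusted p = 0.0011) and by 1.03 against Rop7-I (adjusted p = 0.0013). Cxcr4, a chemokine receptor gene, stood at 234, 265 and 263 TPM (Rop7-I), 147, 132 and 149 TPM (Rop7-II) and 233, 230 and 221 TPM (Rop7-III). Rop7-II was lowest in every sample. Cxcr4 was 0.67 higher in Rop7-III than Rop7-II (adjusted p = 8.2e-05) and 0.83 higher in Rop7-I than Rop7-II (adjusted p = 3.7e-05). The remaining calls were Gbe1, a glycogen enzyme gene, at 0.44 between Rop7-III and Rop7-II (adjusted p = 0.0045), and Stc2, at 1.24 between Rop7-I and Rop7-II (adjusted p = 0.0071). Without Rop7-I replicate 2 the adjusted p of Stc2 was 0.0318, and with both marker-rich samples left out that of Stc2 was 0.0233 and that of Gbe1 0.0132.

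Regulators of glucose metabolism, all 19 of which were tested, gave 2 higher and 1 lower in Rop7-III than Rop7-II, 1 lower in Rop7-III than Rop7-I, and 4 higher in Rop7-I than Rop7-II. Arrdc4 and Txnip encode arrestin-like proteins that glucose induces and that lower glucose uptake. Arrdc4 stood at 4.57, 3.58 and 4.45 TPM (Rop7-I), 0.75, 0.75 and 0.73 TPM (Rop7-II) and 1.78, 2.42 and 1.62 TPM (Rop7-III). The clones were fully separated, with Rop7-II lowest and Rop7-I highest. Its difference was 1.57 between Rop7-I and Rop7-II (adjusted p = 1.5e-04), 0.74 between Rop7-III and Rop7-II (adjusted p = 0.0056) and -0.83 between Rop7-III and Rop7-I (adjusted p = 0.0065). The call of Arrdc4 between Rop7-III and Rop7-II was lost without any sample but Rop7-I replicate 2 and Rop7-III replicate 3 (adjusted p between 0.0101 and 0.0218), and with no filter (0.0154), a fit to the pair only (0.0189), a replicate block (0.0180) or both marker-rich samples left out (0.0127). Between Rop7-III and Rop7-I it was lost without any Rop7-I sample, Rop7-II replicate 3, Rop7-III replicate 1 or Rop7-III replicate 3 (adjusted p between 0.0101 and 0.0334), with no filter (0.0212), quantile normalization (0.0168), a replicate block (0.0221) or both marker-rich samples left out (0.0109).

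Txnip stood at 985, 1128 and 994 TPM (Rop7-I), 753, 697 and 828 TPM (Rop7-II) and 867, 818 and 874 TPM (Rop7-III). Rop7-I was highest in all samples, and Rop7-II and Rop7-III overlapped. Txnip was 0.45 higher in Rop7-I than Rop7-II (adjusted p = 0.0027), a call that was lost without Rop7-I replicate 2 (0.0109), with no filter (0.0267), no variance trend (0.0102), a fit to the pair only (0.0172) or both marker-rich samples left out (0.0233). Rptor, which encodes the scaffold of an mTOR complex, stood at 29.2, 28.7 and 26.5 TPM (Rop7-I), 22.6, 23.5 and 22.9 TPM (Rop7-II) and 33.7, 33.0 and 35.8 TPM (Rop7-III). The 3 clones did not overlap. Rptor was 0.55 higher in Rop7-III than Rop7-II (adjusted p = 1.2e-04) and 0.28 higher in Rop7-I than Rop7-II (adjusted p = 0.0070), and the latter was lost without any sample but Rop7-I replicate 3 and Rop7-III replicate 3 (adjusted p between 0.0123 and 0.0320). It was lost as well with no filter (0.0202), no variance trend (0.0116), a fit to the pair only (0.0235), a replicate block (0.0211) or both marker-rich samples left out (0.0609). Rptor also passed between Rop7-III and Rop7-I with a minimum of 1 TPM in every sample (0.0095), a common median (0.0081) or array weights (0.0056). Myc, a transcription factor gene that drives glycolysis in activated T cells, was 0.48 higher in Rop7-I than Rop7-II (adjusted p = 0.0047), and was not called without Rop7-I replicate 2 (0.0243) or without both marker-rich samples (0.0328). Stk11, the kinase that activates AMPK, was 0.34 lower in Rop7-III than Rop7-II (adjusted p = 0.0060). It missed the threshold when Rop7-II replicate 1 (0.0179) or both marker-rich samples (0.0222) were left out. Egln2, Gbe1, Stc2, Myc and Stk11 were singled out after their values were seen, and of the alternatives they were given those without the marker-rich samples.

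Counts for the marker lists in the same fit were as follows. Over the 3 clones the F test called 2 of 9 CD8 T-cell markers, 1 of 4 CD4 T-cell markers and 5 of 10 dividing-cell markers, beside 14.1% of all genes. It called 0 of 10 B-cell, 0 of 10 myeloid, 0 of 6 erythroid, 0 of 2 NK-cell and 0 of 4 immediate early and stress genes. At an unadjusted p under 0.05 the contrast of Rop7-III with Rop7-II had 8 myeloid markers, 2 CD4 T-cell markers and 1 immediate early and stress gene lower. In it 1 erythroid and 1 CD4 T-cell marker were higher, with 0 for B-cell and NK-cell markers, beside 37.8% of all genes in either direction. Between Rop7-III and Rop7-I, 2 immediate early and stress genes and 1 NK-cell marker were lower and 1 CD4 T-cell marker higher, beside 28.0%. All Rop7-III samples lay below all Rop7-I samples for 8 of 10 B-cell markers, beside 2390 of all 12115 genes. Limma called 0 of these 10 markers in that pair, and 0 had an unadjusted p under 0.05. Between Rop7-I and Rop7-II, 2 erythroid markers were higher, and 2 myeloid and 1 CD4 T-cell marker lower, beside 32.1%. The CD8 T-cell markers called between Rop7-III and Rop7-II were Cd8a, at -0.39, and Cd2, at 0.54. None was called between Rop7-III and Rop7-I, with 3 higher and 1 lower at an unadjusted p under 0.05 (44.4%, beside 28.0% of all genes). Between Rop7-I and Rop7-II the CD8 T-cell markers called were Cd8a, at -0.22, Lck, at -0.19, and Cd2, at 0.39, which is 3 of 9 beside 7.53% of all genes. Of the CD4 T-cell markers Cd40lg stood at 2.90 to 3.70 TPM in Rop7-III and at most 0.70 TPM elsewhere. It passed the filter on low values only through Rop7-III, the clone where it is high. Its calls, 1.66 above Rop7-II and 1.97 above Rop7-I, are therefore not read as a result. Counts of CD4 T-cell markers that include Cd40lg carry the same limit.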

How the data were processed

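The values the authors deposited are TPM per gene and sample, which the authors made with RSEM 1.2.11 against RefSeq genes of mm10. The authors' own tests used counts with DESeq2 1.8.1, and counts were not used here. In R 4.3.3 values were taken as log2(TPM + 1), a pseudocount of 1. Genes with a maximum TPM over 1 were kept, 12115 of 24060. Limma 3.58.1, with a trend of the variance on mean expression, was fitted to all 9 samples, and the 3 pairs of clones and an F test were two-sided, adjusted by Benjamini-Hochberg over all genes tested and called at an adjusted p under 0.01. Every adjusted p in the text is from limma. Members, marker lists and pathway lists were chosen with earlier results of these data known, and no list was given a test of its own.

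Named genes are the members called, the most abundant member of each role, members with a mean under 1 TPM, and in each pathway list the 3 genes with the smallest adjusted p in the F test among those under 0.01. Others are marked as chosen after their values were seen. Transcripts were compared with BLAST 2.17.0 (at least 95% identity over 100 bases). Figures were drawn with matplotlib 3.10.9. The code was tried on simulated data first. Raw reads were not used.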

Additional observations from a re-analysis of the deposited data

How the results depend on the processing

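Of the counts of called genes, 5 of the 38 members and 1488 of all genes between Rop7-III and Rop7-II became 2 and 811 with no filter on low values, 3 members without a variance trend, 3 and 839 in a fit to the pair only, 10 and 3041 at an adjusted p under 0.05, and 0 and 206 with at least a 2-fold difference as well (17 members had an unadjusted p under 0.05 in limma). Between Rop7-III and Rop7-I, 1 and 588 became 212 genes with no filter, 2 and 1062 with array weights, 2 members in a fit to the pair only, 3 and 1586 at 0.05, and 128 genes at 2-fold. Between Rop7-I and Rop7-II, 2 and 912 became 1 and 399 with no filter, 1 and 600 without a trend, 1 and 356 in a fit to the pair only, 7 and 2163 at 0.05, and 0 and 115 at 2-fold (15 members had an unadjusted p under 0.05). In the F test, 5 and 1707 became 1 and 767 with no filter, 3 members at a common median, 1 without a trend, and 10 and 3639 at 0.05. With both Rop7-II replicate 1 and Rop7-I replicate 2 left out, chosen after seeing the data, members numbered 3, 1, 1 and 3 in the same order, and genes 358 between Rop7-III and Rop7-I, 352 between Rop7-I and Rop7-II and 983 in the F test. Of those members, 2, 1, 0 and 2 were among the main calls, and the 1 between Rop7-I and Rop7-II was Pgam1. With a replicate block, members numbered 4, 1, 2 and 3 and genes 1105, 373, 613 and 1205. Of 9 same-numbered pairs of samples, 1 correlated above 0.1. The labels do not say whether replicate numbers pair the samples, and these correlations cannot settle it. With the block, 1 of the 2 members between Rop7-I and Rop7-II was among the main calls. Leaving out each sample in turn gave 1 to 5 members and 811 to 1279 genes between Rop7-III and Rop7-II, 1 to 3 and 240 to 786 between Rop7-III and Rop7-I, 1 to 2 and 409 to 811 between Rop7-I and Rop7-II, and 1 to 3 and 977 to 1643 in the F test. In the first of these pairs 1 member was called without replicate 1 of Rop7-III, 2 without its replicate 3, and 3 without its replicate 2 or without replicate 2 of Rop7-II. Of the 3 without replicate 2 of Rop7-III, 2 were among the main calls. Pseudocounts of 0.1 and 0.5, a minimum of 1 TPM in every sample and quantile normalization kept each of these counts within 1.5 times. The cause was not tested.

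Among the named genes no difference changed sign where it was called. For the members named by the rule and Eno1, called differences stayed under the threshold in 127 values under an alternative and not in 41, and differences not called passed it in 7 and not in 824. Outside this tally 8 calls of members were gained, 6 of Pgam1 (array weights, Rop7-II replicate 1 left out, both samples left out), 1 of Pfkp (Rop7-II replicate 1 left out) and 1 of Pkm (a minimum of 1 TPM in every sample). Values are TPM without counts, so counting error was not computed.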
